A study of Homo sapiens with 19 samples.

Results

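The HOX genes encode homeodomain transcription factors that lie in 4 clusters, HOXA, HOXB, HOXC and HOXD. Their order within a cluster, numbered as paralog groups, follows the head-to-tail order in which they are used in the embryo, and adult epithelia, the colon among them, keep a part of that code. HOX proteins bind DNA together with the homeodomain cofactors of the PBX, MEIS and PKNOX families, while Polycomb proteins keep unused HOX genes silent and Trithorax proteins keep used ones active.

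Of 38 HOX genes listed by cluster membership, 28 had a probe set that the platform annotation assigns to that gene alone, and these 28 are described here among 19775 genes of the array. They are all 10 listed genes of HOXB, all 9 of HOXC, 8 of 9 of HOXD and 1 of 10 of HOXA, namely HOXA2. HOXA3, HOXA4, HOXA5, HOXA6, HOXA7, HOXA9, HOXA10, HOXA11, HOXA13 and HOXD3 were not analysed here, so nothing below speaks for the HOXA cluster.

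The study compared colon cancer cell lines with microsatellite instability (MSI), the genomic mark of lost DNA mismatch repair, with microsatellite stable (MSS) lines. The MSI lines were RKO, SW48, HCT116, LIM2405 and LS174T, on 10 arrays, and the MSS lines were HT29, T84, CACO2, SKCO1 and HCC2998, on 9 arrays. All are established human lines, untreated, grown in DMEM with 10% serum and harvested in exponential growth. Each line was grown and arrayed in duplicate cultures, except that T84 has 1 array here. The line is the replicate for the comparison by status, made on line means. The test between lines and some alternative fits use the single arrays.

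Values are the deposited log2 RMA values of an Affymetrix expression array, averaged over the arrays of a line, and a gene is represented by its brightest probe set. Array medians lay between 5.62 and 5.71 log2, and duplicate arrays of a line correlated at r of 0.978 to 0.996 over genes. The number of lines limits the precision. A level of 7 log2 is used below as a mark of clear signal, since the median of all values was 5.67 log2. It is a descriptive mark and not a detection call, and because probe sets differ in brightness it orders lines for a gene, not genes among themselves. In whole cultures, fewer cells with a transcript and less RNA per cell cannot be told apart. Of 9 colon epithelial markers, summed levels ran from 59.8 to 104.9 log2 in MSI lines and from 98.3 to 114.9 log2 in MSS lines. RKO was the lowest line, with 4 of the 9 markers under the median of all values, and the next lowest MSI line was at 85.3 log2. All 4 endothelial, all 3 measured leukocyte and 5 of 6 fibroblast markers stayed at or below 7 log2 in every line.

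The HOX genes differed from line to line, while none passed the comparison by status. In at least 1 line 21 of the 28 members exceeded 7 log2, beside 60.2% of all genes, but only HOXB4 and HOXB7 did so in all 10 lines, beside 35.8% of all genes. A range of at least 3 log2 (8-fold) between the highest and the lowest line was found for 10 members, beside 14.7% of all genes. These were HOXB2, HOXB3, HOXB6, HOXB8, HOXB9, HOXC6, HOXC10, HOXD1, HOXD8 and HOXD13. A moderated F test over the 19 arrays passed at an adjusted p under 0.05 for 23 members, beside 67.0% of all genes. HOXB1, HOXC12, HOXD10, HOXD11 and HOXD12 did not pass. That test sets lines against the spread between duplicate cultures and does not treat lines as a sample of tumours.

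**Figure D1:**
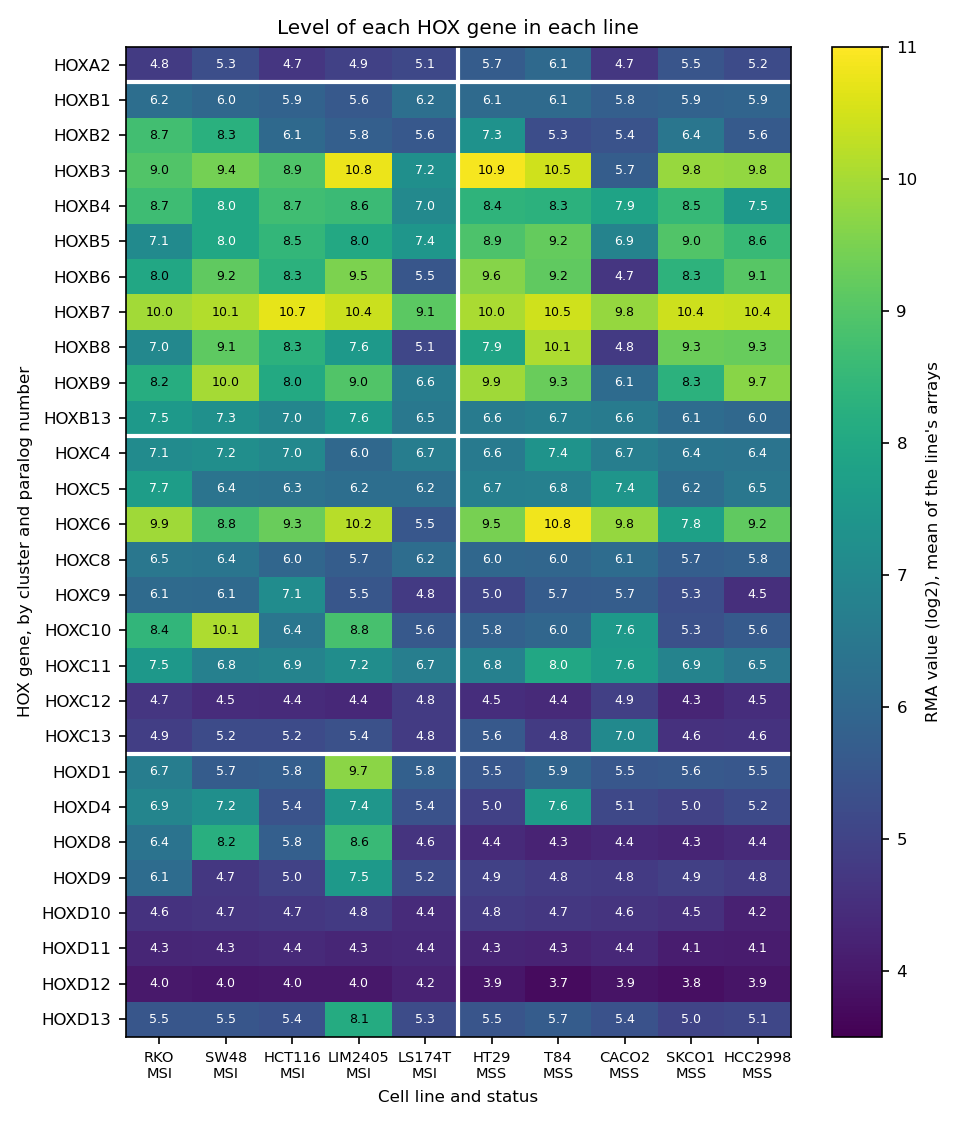
Level of the 28 measured HOX genes (rows, by cluster and paralog number) in each of 10 cell lines (columns, 5 MSI lines left of 5 MSS lines), as the mean log2 RMA value of the line's arrays, printed in each cell. Within HOXB the rows from HOXB3 to HOXB9 are bright in most lines, with HOXB6 and HOXB8 dark in LS174T and CACO2. The HOXD block is brightest in LIM2405.

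The number of HOX genes above 7 log2 differed between the lines. Among MSI lines it was 16 in LIM2405, 14 in RKO, 14 in SW48, 10 in HCT116 and 4 in LS174T. Among MSS lines it was 11 in T84, 9 in HT29, 8 in SKCO1, 8 in HCC2998 and 7 in CACO2. The corresponding share of all genes was nearly level: in MSI lines it was 48.1% in LIM2405, 48.7% in RKO, 48.4% in SW48, 48.6% in HCT116 and 49.0% in LS174T. In MSS lines it was 48.3% in T84, 47.6% in HT29, 47.7% in SKCO1, 47.1% in HCC2998 and 48.5% in CACO2. LS174T therefore had the fewest HOX genes above 7 log2 of any line although its share of all genes was the highest. The 4 were HOXB3, HOXB4, HOXB5 and HOXB7. By position, 3 of 5 measured members of paralog groups 1 to 3 exceeded 7 log2 in at least 1 line, as did 10 of 11 of groups 4 to 8 and 8 of 12 of groups 9 to 13. These counts depend on the brightness of each probe set and do not rank the groups.

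HOXB, whose members pattern the hindbrain and trunk, was low in LS174T and CACO2 against the other lines. The median deviation of its 10 genes from their own means over the lines was -1.08 log2 in LS174T and -1.16 log2 in CACO2, and lay between -0.15 and 0.55 log2 in the other 8 lines. In CACO2 the line averages of all 10 HOXB genes were below their means, beside 11451 of all 19775 genes. In LS174T 9 were, beside 7820 of all genes. The CACO2 count holds for the average of its arrays only. On a single CACO2 array HOXB1 read 6.06, HOXB7 10.29 and HOXB13 7.16 log2. These values were above the means over the lines, which were 5.96, 10.14 and 6.80 log2.

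HOXB3, HOXB6 and HOXB8 had the widest ranges of the cluster. HOXB3, a hindbrain and trunk patterning gene, was at 8.95 log2 in RKO, 9.44 in SW48, 8.93 in HCT116, 10.78 in LIM2405 and 7.24 in LS174T, against 10.91 in HT29, 10.46 in T84, 5.72 in CACO2, 9.83 in SKCO1 and 9.78 in HCC2998. HOXB6, a trunk gene also known from blood progenitors, was at 8.0 log2 in RKO, 9.16 in SW48, 8.33 in HCT116, 9.51 in LIM2405 and 5.51 in LS174T, against 9.64 in HT29, 9.16 in T84, 4.68 in CACO2, 8.35 in SKCO1 and 9.05 in HCC2998. HOXB8, known as an immortalising gene of mouse myeloid progenitors, was at 7.01 log2 in RKO, 9.14 in SW48, 8.32 in HCT116, 7.57 in LIM2405 and 5.08 in LS174T, against 7.87 in HT29, 10.09 in T84, 4.77 in CACO2, 9.32 in SKCO1 and 9.25 in HCC2998. All 3 genes were lowest in CACO2, an MSS line, and next lowest in LS174T, an MSI line, so the statuses overlapped. The fold between the highest and the lowest line was 36.4 for HOXB3, 30.9 for HOXB6 and 40.1 for HOXB8, and each passed the test between lines (limma moderated F, adjusted p = 1.22e-06 for HOXB3, 2.85e-07 for HOXB6 and 1.34e-07 for HOXB8). In CACO2 the duplicates differed widely: HOXB3 read 4.82 and 6.63 log2 and HOXB6 read 3.89 and 5.48 log2 on the 2 arrays, while HOXB8 read 4.69 and 4.84 log2. Both CACO2 arrays were nonetheless below every array of the 9 other lines for HOXB3, and for HOXB8.

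HOXB9, the next gene along the cluster, was also lowest in CACO2 at 6.12 log2 and in LS174T at 6.64 log2, while the other lines ran from 8.05 to 9.99 log2. HOXB4, HOXB5 and HOXB7 varied less over the lines. HOXB4, which in blood stem cells promotes self-renewal, was also lowest in LS174T, at 7.04 log2, and was at 7.86 log2 in CACO2, within a range of 1.65 log2 over all lines. HOXB7 was likewise lowest in LS174T, at 9.12 log2, and next lowest in CACO2, at 9.82 log2, within a range of 1.61 log2. The CACO2 arrays read 9.34 and 10.29 log2 for HOXB7, and the higher lay above every array of RKO and HT29. HOXB5, which takes part in development of the enteric nervous system, was at 7.09 log2 in RKO, 7.97 in SW48, 8.47 in HCT116, 8.04 in LIM2405 and 7.44 in LS174T, against 8.89 in HT29, 9.23 in T84, 6.85 in CACO2, 8.95 in SKCO1 and 8.55 in HCC2998. It was lowest in CACO2, while RKO and LS174T were the lowest MSI lines. Its range was 2.38 log2.

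At the ends of the cluster the lines differed in another way. HOXB1, a gene of the embryonic hindbrain, stayed between 5.58 and 6.24 log2. HOXB2 reached 8.74 log2 in RKO, 8.26 in SW48 and 7.31 in HT29, and was between 5.26 and 6.44 log2 in the other 7 lines. HOXB13, the posterior gene of the cluster and a marker of prostate and distal gut, was at 7.55 log2 in RKO, 7.26 in SW48, 6.96 in HCT116, 7.55 in LIM2405 and 6.52 in LS174T, against 6.61 in HT29, 6.73 in T84, 6.61 in CACO2, 6.14 in SKCO1 and 6.04 in HCC2998. Its line mean exceeded 7 log2 only in LIM2405, RKO and SW48, all of them MSI lines, and LS174T was the MSI line that overlapped the MSS range. On single arrays CACO2, an MSS line, read 6.07 and 7.16 log2. The higher of these lay above both HCT116 arrays, at 6.96 log2.

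**Figure D2:**
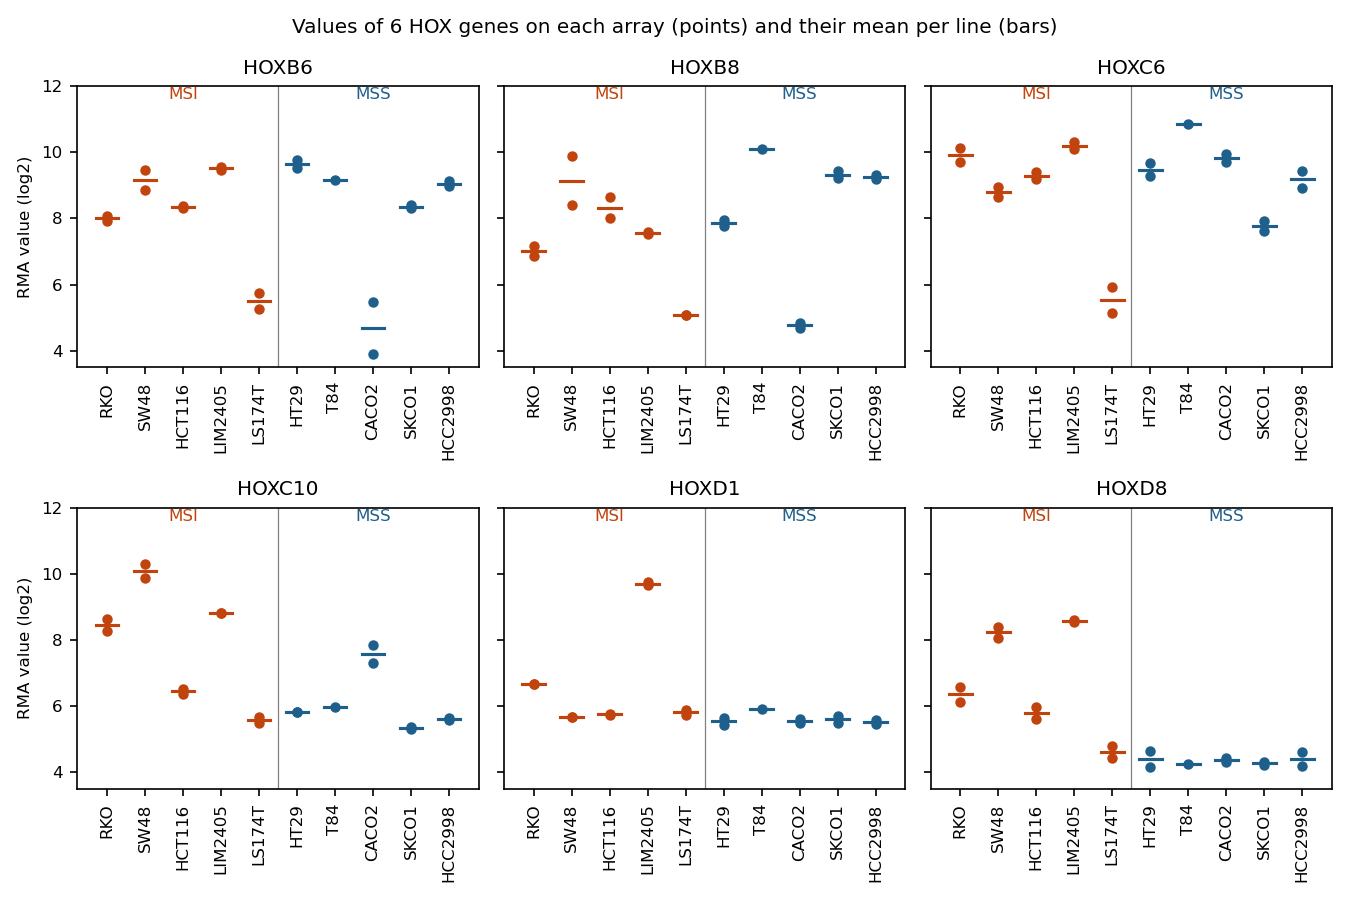
Log2 RMA values of HOXB6, HOXB8, HOXC6, HOXC10, HOXD1 and HOXD8 on each array (points) and the mean of each line (short bars), with 5 MSI lines left of 5 MSS lines and 1 array for T84. LS174T and CACO2 are low in HOXB6 and HOXB8, LS174T is low in HOXC6, and LIM2405 is high in HOXD1 and HOXD8.

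In HOXC the line that stood apart differed from gene to gene. The median deviation of the 9 genes was lowest in LS174T at -0.40 log2 and highest in CACO2 at 0.55 log2. CACO2 was the line whose array averages for the HOXB genes were all below the gene means. HCC2998 at -0.36 log2 and SKCO1 at -0.34 log2 were nearly as low as LS174T, and RKO was at 0.44 log2. HOXC6, a gene of the thoracic trunk, was at 9.92 log2 in RKO, 8.80 in SW48, 9.29 in HCT116, 10.20 in LIM2405 and 5.54 in LS174T, against 9.47 in HT29, 10.85 in T84, 9.82 in CACO2, 7.76 in SKCO1 and 9.18 in HCC2998. LS174T, an MSI line, was low and every other line was above 7.7 log2, a fold of 39.6 between T84 and LS174T (limma moderated F between lines, adjusted p = 5.00e-08). HOXC10, a gene of the lumbar spinal cord and hindlimb in the mouse, was at 8.44 log2 in RKO, 10.07 in SW48, 6.45 in HCT116, 8.82 in LIM2405 and 5.58 in LS174T, against 5.83 in HT29, 5.97 in T84, 7.57 in CACO2, 5.35 in SKCO1 and 5.61 in HCC2998. It was highest in SW48, LIM2405, RKO and CACO2, so that the MSI group spanned 5.58 to 10.07 log2 and overlapped the MSS group. HOXC9 was at 6.08 log2 in RKO, 6.05 in SW48, 7.14 in HCT116, 5.50 in LIM2405 and 4.77 in LS174T, against 5.04 in HT29, 5.68 in T84, 5.71 in CACO2, 5.30 in SKCO1 and 4.50 in HCC2998. Only HCT116 exceeded 7 log2.

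HOXC13, the gene of hair and nail keratin programmes at the posterior end of the cluster, was at 4.90 log2 in RKO, 5.20 in SW48, 5.23 in HCT116, 5.35 in LIM2405 and 4.81 in LS174T, against 5.6 in HT29, 4.80 in T84, 7.05 in CACO2, 4.56 in SKCO1 and 4.61 in HCC2998. CACO2 stood apart on both arrays, at 6.81 and 7.28 log2. Among the others, HOXC4 exceeded 7 log2 in T84, SW48, RKO and HCT116, with a highest level of 7.36 log2. HOXC5 did so in RKO at 7.69 log2 and in CACO2 at 7.41 log2. HOXC11 was highest in T84 at 8.0 log2 and lowest in HCC2998 at 6.47 log2. HOXC8 stayed between 5.71 and 6.48 log2 and HOXC12 between 4.27 and 4.92 log2 in all lines.

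HOXD, whose posterior genes shape digits, genital tract and hindgut, was low in most lines and high in LIM2405. The median deviation of its 8 genes was 1.83 log2 in LIM2405 and 0.28 log2 in RKO. It lay between -0.51 and 0.04 log2 in the other 8 lines. In LIM2405 all 8 were above their means, while 11679 of all 19775 genes were below theirs. The promoters of 11 of the 28 members were in the RefSeq promoter table (build GRCh38.p14, 250 bases before to 50 after a gene's start). Those of HOXD1, HOXD8 and HOXD13, the members of the cluster with the widest ranges, are shown with that of HOXD4, a member with a different pattern over the lines. Sequences are 5′ to 3′ on the gene's strand, and capitals mark a match to a motif on either strand.
HOXD1 promoter, chr2:176188418-176188717, + strand: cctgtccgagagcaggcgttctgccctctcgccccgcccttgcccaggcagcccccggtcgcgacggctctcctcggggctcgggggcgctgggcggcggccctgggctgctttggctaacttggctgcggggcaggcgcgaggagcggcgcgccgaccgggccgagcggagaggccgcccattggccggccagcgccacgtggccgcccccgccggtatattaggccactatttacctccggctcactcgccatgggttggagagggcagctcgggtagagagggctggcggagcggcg
HOXD4 promoter, chr2:176151300-176151599, + strand: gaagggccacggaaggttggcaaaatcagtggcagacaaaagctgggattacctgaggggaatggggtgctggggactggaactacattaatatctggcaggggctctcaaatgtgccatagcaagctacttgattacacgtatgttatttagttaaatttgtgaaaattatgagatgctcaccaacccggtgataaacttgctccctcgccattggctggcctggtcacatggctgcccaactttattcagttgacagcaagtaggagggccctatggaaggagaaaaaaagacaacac
HOXD8 promoter, chr2:176129455-176129754, + strand: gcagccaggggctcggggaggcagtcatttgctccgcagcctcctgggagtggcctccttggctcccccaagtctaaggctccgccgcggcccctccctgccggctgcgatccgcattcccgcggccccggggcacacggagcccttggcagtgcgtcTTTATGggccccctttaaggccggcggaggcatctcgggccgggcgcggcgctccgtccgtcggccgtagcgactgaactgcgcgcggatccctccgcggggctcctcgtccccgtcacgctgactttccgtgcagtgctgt
HOXD13 promoter, chr2:176092471-176092770, + strand: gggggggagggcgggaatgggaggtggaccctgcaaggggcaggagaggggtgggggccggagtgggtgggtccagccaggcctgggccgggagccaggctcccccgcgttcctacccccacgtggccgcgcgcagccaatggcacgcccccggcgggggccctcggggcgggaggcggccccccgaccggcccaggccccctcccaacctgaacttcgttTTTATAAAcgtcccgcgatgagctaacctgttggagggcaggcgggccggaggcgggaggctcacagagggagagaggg

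The windows of HOXD1 and HOXD8 are dense in CpG dinucleotides, with 36 and 34 in 300 bases, against a median of 14 over 35116 promoters. HOXD1 had more than 87.3% and HOXD8 more than 84.4% of all promoters. HOXD13 had 24, more than 66.1%, and HOXD4 had 4, more than 24.5%. The motifs searched on both strands were TATAAA (the TATA box), TTTATG (a CDX core) and TGATNNAT (a PBX and HOX composite). TATAAA was found only at HOXD13 among the 11 member windows, as 2 overlapping matches on opposite strands, and 11.5% of all promoters hold it. TTTATG was found only at HOXD8, and 10.6% of all promoters hold it. TGATNNAT was found at HOXA2, HOXB1 and HOXD11, and 7.4% of all promoters hold it. HOXC4 and HOXC5 share 1 window in the table.

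HOXD8, a trunk gene of the middle of the cluster, was the member with the largest difference by status. It was at 6.36 log2 in RKO, 8.23 in SW48, 5.78 in HCT116, 8.57 in LIM2405 and 4.62 in LS174T, against 4.40 in HT29, 4.26 in T84, 4.37 in CACO2, 4.28 in SKCO1 and 4.41 in HCC2998. LIM2405 and SW48 were high, RKO and HCT116 were intermediate, and LS174T lay only 0.21 log2 above the highest MSS line. The 5 MSS lines were all under the median of all values.

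HOXD1, at the anterior end of the cluster, was at 6.68 log2 in RKO, 5.68 in SW48, 5.75 in HCT116, 9.70 in LIM2405 and 5.81 in LS174T, against 5.54 in HT29, 5.91 in T84, 5.54 in CACO2, 5.6 in SKCO1 and 5.52 in HCC2998. HOXD13, at the posterior end and known for limb malformation when mutated, was at 5.50 log2 in RKO, 5.50 in SW48, 5.39 in HCT116, 8.12 in LIM2405 and 5.25 in LS174T, against 5.48 in HT29, 5.67 in T84, 5.38 in CACO2, 5.04 in SKCO1 and 5.11 in HCC2998. Both genes were high in LIM2405 alone, with an intermediate HOXD1 level in RKO. HOXD9 was likewise highest in LIM2405 at 7.53 log2, followed by RKO at 6.14 log2, and lay between 4.70 and 5.22 log2 in the other 8 lines. HOXD4 had another pattern. It was highest in T84 at 7.62 log2, an MSS line, followed by LIM2405 at 7.44, SW48 at 7.23 and RKO at 6.91 log2, while the other 6 lines lay between 4.96 and 5.42 log2. HOXD10, HOXD11 and HOXD12 lay between 3.73 and 4.79 log2 in every line, although their neighbours HOXD9 and HOXD13 on either side were high in LIM2405.

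No HOX gene passed the MSI against MSS test (limma on 10 line means, Benjamini-Hochberg over 19775 genes, adjusted p under 0.05), beside 0.0455% of all genes, 9 in number. At an unadjusted p under 0.05, 2 members were higher in MSI lines, HOXD8 and HOXB13, beside 6.76% of all genes, and none was lower, beside 3.01% of all genes. All MSI lines lay above all MSS lines for 2 members, HOXD8 and HOXD12, beside 1.99% of all genes, and for none below, beside 0.597% of all genes. Each count is 2 genes or none, and nothing beyond these genes is read from it. On single arrays the statuses overlapped for both HOXD8 and HOXD12. HOXD8 read 4.43 log2 on 1 array of LS174T and 4.65 log2 on 1 array of HT29. HOXD12 read 3.89 log2 on 1 array of SW48 and 4.02 log2 on 1 array of HCC2998. The median difference of the 28 members was 0.06 log2, against 0.07 log2 over all genes, and 17 members had higher means in MSI lines, as did 12718 of all 19775 genes. It was -0.11 log2 in HOXB (4 of 10 higher in MSI lines), 0.04 log2 in HOXC (5 of 9 higher) and 0.74 log2 in HOXD (8 of 8 higher). These counts stand beside that over all genes and describe genes that share the same lines. Among the HOXD genes, the dim HOXD10, HOXD11 and HOXD12 differed by only 0.05, 0.13 and 0.18 log2. They did not pass the test between lines. All 9 colon epithelial markers had lower means in MSI lines, with a median difference of -2.03 log2, and none passed. Their part in the HOX differences was not tested.

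The MSI mean was 6.71 ± 1.67 log2 and the MSS mean 4.34 ± 0.07 log2 (SD, n = 5 lines each) for HOXD8, a difference of 2.37 log2 (SE 0.69, limma adjusted p = 0.318). The adjusted p ran from 0.0252 to 0.483 over the alternatives. On the linear scale the difference of the log2 means is 5.16-fold. Without LIM2405 the difference was 1.90 log2 and without LS174T 2.89 log2. The MSI mean was 7.17 ± 0.44 log2 and the MSS mean 6.43 ± 0.32 log2 (SD, n = 5 lines each) for HOXB13, a difference of 0.74 log2 (SE 0.23, limma adjusted p = 0.344). The MSI mean was 4.04 ± 0.11 log2 and the MSS mean 3.86 ± 0.09 log2 (SD, n = 5 lines each) for HOXD12, a difference of 0.18 log2 (SE 0.08, limma adjusted p = 0.525). Its 10 lines lay within 0.50 log2 at the dim end of the array, and the gene did not pass the test between lines.

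The MSI mean was 7.87 ± 1.83 log2 and the MSS mean 6.06 ± 0.87 log2 (SD, n = 5 lines each) for HOXC10, a difference of 1.81 log2 (SE 0.84, limma adjusted p = 0.526). HOXD1 differed by 1.10 log2 (SE 0.71, limma adjusted p = 0.646), and without LIM2405 by 0.36 log2. HOXD13 differed by 0.62 log2 (SE 0.52, limma adjusted p = 0.71), and without LIM2405 by 0.08 log2. LIM2405 thus set most of the size of the HOXD1 and HOXD13 differences.

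The lowest p in the other direction belonged to HOXA2, HOXB5 and HOXB8. HOXA2, a gene of the second branchial arch and hindbrain, was at 4.81 log2 in RKO, 5.31 in SW48, 4.69 in HCT116, 4.94 in LIM2405 and 5.12 in LS174T, against 5.68 in HT29, 6.07 in T84, 4.73 in CACO2, 5.48 in SKCO1 and 5.21 in HCC2998. All its lines were under 6.1 log2, the highest being T84, and the groups overlapped. The difference was -0.46 log2 for HOXA2 (SE 0.24, limma adjusted p = 0.574) and -0.69 log2 for HOXB5 (SE 0.46, limma adjusted p = 0.649). Without T84 it was -0.30 log2 for HOXA2, and without CACO2 it was -1.11 log2 for HOXB5. It was -0.83 log2 for HOXB8 (SE 1.08, limma adjusted p = 0.803), -0.25 log2 without LS174T, -0.38 log2 without T84, -1.26 log2 without SW48 and -1.71 log2 without CACO2.

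For HOXB3, HOXB6, HOXC6 and HOXC13 the sign of the difference rested on single lines. It was -0.27 log2 for HOXB3 (SE 1.01, limma adjusted p = 0.938) and 0.19 without LS174T, 0.12 without HT29 and 0.01 log2 without T84. It was -0.08 log2 for HOXB6 (SE 1.05, limma adjusted p = 0.986) and 0.57 without LS174T, 0.29 without HT29, 0.17 without T84 and 0.14 log2 without HCC2998. Without CACO2 it was -1.17 log2 for HOXB3 and -0.95 log2 for HOXB6. The difference was -0.66 log2 for HOXC6 (SE 0.90, limma adjusted p = 0.811) and 0.14 log2 without LS174T. It was -0.22 log2 for HOXC13 (SE 0.45, limma adjusted p = 0.876) and 0.21 log2 without CACO2. HOXC9 differed by 0.67 log2 (SE 0.42, limma adjusted p = 0.639), and by 0.36 log2 without HCT116.

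**Figure D3:**
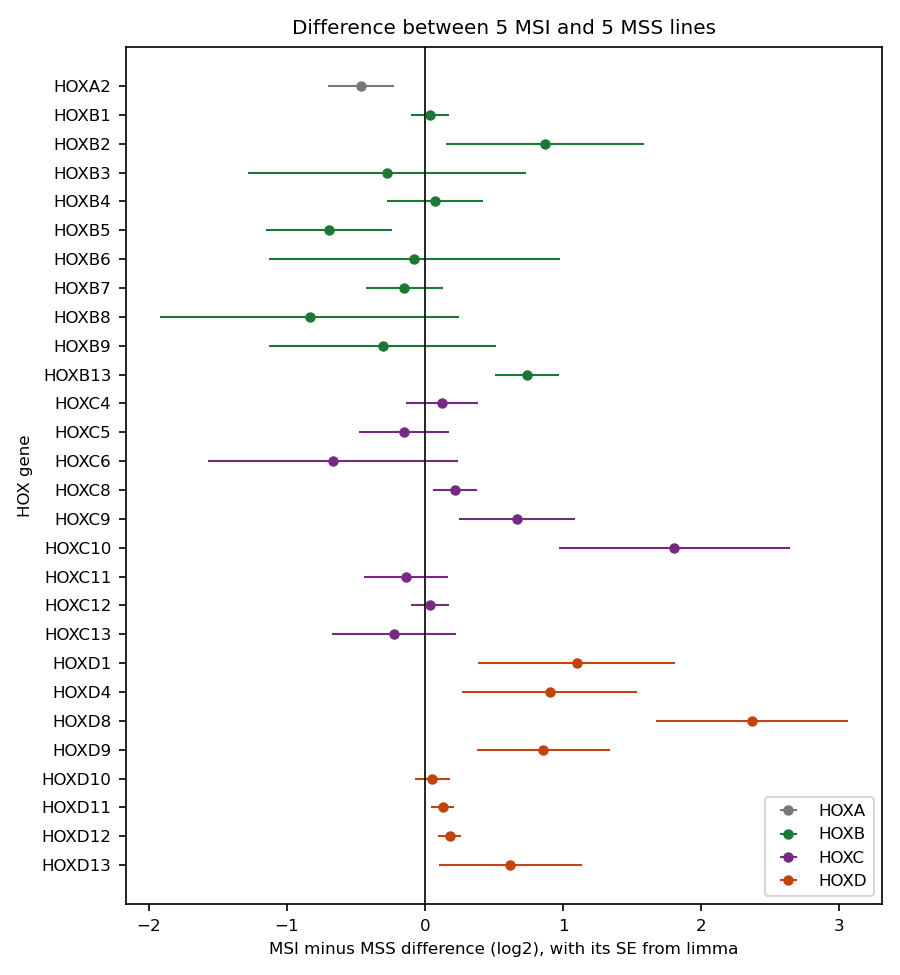
Difference between the means of 5 MSI and 5 MSS lines (x axis, log2, positive where MSI lines were higher) for each of the 28 HOX genes (y axis), with points coloured by cluster and bars of 1 standard error from limma. All 8 HOXD points lie right of 0, HOXD8 is farthest at 2.37 log2, and no gene passed the adjusted test.

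Genes of a cluster varied together over the lines more than genes of different clusters. Pearson's r over the 10 line means had a median of 0.35 over 109 pairs within a cluster, 0.45 over 24 pairs of measured neighbours and 0.07 over 269 pairs between clusters. The last was 0.15 without LIM2405, 0.13 without CACO2, 0.04 without T84 and 0.01 without LS174T. Within HOXB it was 0.35 (45 pairs), within HOXC 0.33 (36 pairs) and within HOXD 0.38 (28 pairs). These are descriptions, since every pair shares the same 10 lines and arrays. The highest values were 0.967 for HOXD1 with HOXD9, 0.966 for HOXB3 with HOXB6, 0.965 for HOXD1 with HOXD13 and 0.943 for HOXB6 with HOXB9. LIM2405 was the highest line for each of these HOXD genes. Between clusters, HOXC10 and HOXD8 had r of 0.876 and HOXB13 and HOXD8 r of 0.831, with SW48 and LIM2405 high in all 3 genes. The negative values of HOXC12, down to -0.883 with HOXB8, come from a gene with a range of 0.65 log2 that did not pass the test between lines.

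**Figure D4:**
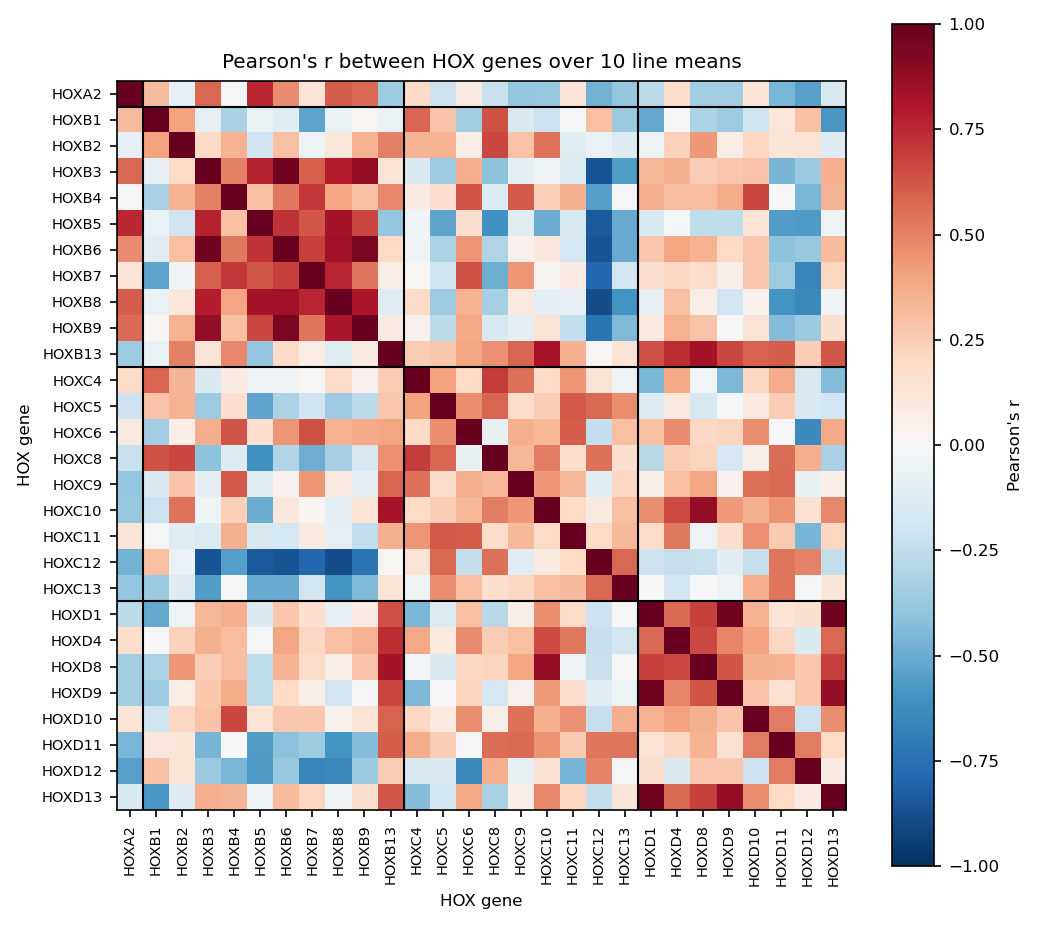
Pearson's r over 10 line means between each pair of the 28 HOX genes, ordered by cluster and paralog number, with black lines between clusters and colour from -1 to 1. The red block from HOXB3 to HOXB9 and the red HOXD1, HOXD8, HOXD9 and HOXD13 cells stand out, and values off the cluster blocks have a median of 0.07.

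For 13 members with more than 1 probe set, 44 probe sets in all over the 28 genes, the choice of the brightest mattered for some. The dimmer probe sets of HOXB7 had r of 0.905 or more with the brightest over the 10 line means, and those of HOXD13 r of 0.945 or more. A dimmer probe set of HOXB3 had a range of only 1.08 log2 and r of 0.64 with the one used. The other probe set of HOXD1 had a range of 0.31 log2 and r of 0.51, with LIM2405 at 3.77 and RKO at 3.84 log2. It gave an MSI minus MSS difference of 0.10 log2, against 1.10 log2 for the one used. The high HOXD1 level of LIM2405 therefore rests on 1 probe set. The other probe set of HOXD9 had r of -0.10 with the one used and a range of 0.56 log2, so the HOXD9 pattern rests on 1 probe set. The other probe set of HOXB6, with r of 0.75, gave an MSI minus MSS difference of -0.84 log2, against -0.08 log2 for the one used. The other probe set of HOXB8 had r of 0.74, a range of 0.74 log2 and a difference of -0.16 log2, against -0.83 log2 for the one used, so the 40.1-fold range of HOXB8 rests on 1 probe set. The other probe set of HOXB13 had r of 0.82 and was highest in HCT116, at 6.37 log2. It gave a difference of 0.49 log2, against 0.74 log2 for the one used. HOXD8 has 1 probe set.

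Transcripts of non-coding genes in the clusters were measured for 11 of 18 listed genes. HAGLR, a long non-coding RNA transcribed antisense in the HOXD cluster, had the pattern most like a HOX gene, with r of 0.94 with HOXD9 over the 10 line means. It was at 7.46 log2 in RKO, 5.09 in SW48, 4.15 in HCT116, 9.32 in LIM2405 and 4.38 in LS174T, against 4.25 in HT29, 5.34 in T84, 4.16 in CACO2, 4.09 in SKCO1 and 4.46 in HCC2998, highest in LIM2405 and RKO as HOXD9 was. HAGLROS, transcribed opposite to HAGLR, and HOXD-AS2 had the smallest p of the list. HAGLROS was at 6.56 log2 in RKO, 5.46 in SW48, 4.17 in HCT116, 5.24 in LIM2405 and 4.37 in LS174T, against 4.42 in HT29, 3.96 in T84, 4.32 in CACO2, 4.06 in SKCO1 and 4.23 in HCC2998. It was highest in RKO, SW48 and LIM2405, with HCT116 and LS174T within the MSS range, a difference of 0.96 log2 (SE 0.41, limma adjusted p = 0.488). HOXD-AS2 had a difference of 0.79 log2 (SE 0.34, limma adjusted p = 0.493) and was highest in SW48, RKO and LIM2405 too. Of the list, 10 of 11 had higher means in MSI lines, beside 12718 of all 19775 genes, with a median difference of 0.13 log2, and none passed. Strand was not assigned beyond the annotation of the probe sets.

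The microRNA gene MIR10A lies within the HOXB cluster, and its probe set is given here after its values were seen. It reports a long RNA of that locus and not the mature microRNA. It was at 6.37 log2 in RKO, 7.43 in SW48, 6.93 in HCT116, 6.92 in LIM2405 and 5.30 in LS174T, against 8.78 in HT29, 8.98 in T84, 5.64 in CACO2, 7.58 in SKCO1 and 7.45 in HCC2998. As with HOXB3, HOXB6 and HOXB8, LS174T and CACO2 were the lowest lines, and r with HOXB5 was 0.88 over the 10 line means. The mature miR-10a, which targets mRNAs through its seed, is shown from RefSeq (GRCh38.p14, chr17:48579904-48579926, - strand) with the seed, bases 2 to 8, in capitals.
hsa-miR-10a-5p: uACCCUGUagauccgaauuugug

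No cofactor or chromatin regulator of HOX genes passed the test by status (adjusted p under 0.05). Of 9 HOX cofactors 8 were measured, 6 with higher means in MSI lines, with a median difference of 0.21 log2. PKNOX1 had a difference of 0.30 log2 (SE 0.13, limma adjusted p = 0.515) and MEIS3 a difference of 0.42 log2 (SE 0.22, limma adjusted p = 0.585). Of 19 Polycomb genes 15 were measured, 12 with higher means in MSI lines, beside the same 12718 of all 19775 genes, with a median of 0.31 log2. CBX7, a chromatin reader of Polycomb complex PRC1, was at 9.33 log2 in RKO, 8.46 in SW48, 8.56 in HCT116, 8.91 in LIM2405 and 7.13 in LS174T, against 7.88 in HT29, 6.72 in T84, 7.28 in CACO2, 7.10 in SKCO1 and 7.59 in HCC2998. RKO and LIM2405 were highest, and LS174T, the MSI line with the fewest HOX genes above 7 log2, lay within the MSS range. The MSI mean was 8.48 ± 0.83 log2 and the MSS mean 7.31 ± 0.45 log2 (SD, n = 5 lines each) for CBX7, a difference of 1.16 log2 (SE 0.39, limma adjusted p = 0.374). PHC1, another PRC1 subunit, had a difference of 0.81 log2 (SE 0.32, limma adjusted p = 0.448).

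All 11 Trithorax and demethylase genes were measured, 6 with higher means in MSI lines, with a median of 0.07 log2. KDM6A, which removes the Polycomb mark from histone H3, had a difference of -0.51 log2 (SE 0.18, limma adjusted p = 0.393). KMT2A, the methyltransferase that keeps HOX genes active, had a difference of -0.29 log2 (SE 0.25, limma adjusted p = 0.713). Of 8 other homeobox genes beside or derived from HOX clusters 7 were measured, 3 with higher means in MSI lines, with a median of -0.01 log2. CDX2, the intestinal homeobox factor that controls HOX genes in the embryo, was at 7.33 log2 in RKO, 7.57 in SW48, 6.79 in HCT116, 6.98 in LIM2405 and 8.96 in LS174T, against 6.47 in HT29, 9.61 in T84, 9.09 in CACO2, 9.56 in SKCO1 and 8.50 in HCC2998. Levels were high in T84, SKCO1, CACO2 and LS174T and low in HT29 and HCT116, a difference of -1.12 log2 (SE 0.64, limma adjusted p = 0.611). CACO2 and LS174T, the 2 lines lowest in HOXB6 and HOXB8, were both above 8.9 log2. T84 and SKCO1, still higher in CDX2, were the 2 highest lines for HOXB8, at 10.09 and 9.32 log2. For HOXB6 they were at 9.16 and 8.35 log2. A relation between CDX2 and HOXB levels was not tested. GSX2, also among these other homeobox genes, had a difference of 0.16 log2 (SE 0.10, limma adjusted p = 0.639).

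Genes beside the clusters were measured for comparison. Of 13 listed 12 were measured, 5 with higher means in MSI lines, with a median of -0.04 log2, and none passed. MTX2, a mitochondrial import gene next to HOXD, lay between 9.88 and 10.56 log2 in all 10 lines and had a difference of 0.29 log2 (SE 0.11, limma adjusted p = 0.444). HIBADH, a valine catabolism gene beside HOXA, had a difference of -0.63 log2 (SE 0.27, limma adjusted p = 0.493). LNPK, an endoplasmic reticulum gene on the other side of HOXD, lay between 8.59 and 9.93 log2 and was chosen after its values were seen. Over the lines MTX2 ranged over 0.68 log2 and LNPK over 1.35 log2, while HOXD1 ranged over 4.18 log2, HOXD8 over 4.32 log2 and HOXD13 over 3.08 log2.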

How the data were processed

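Expression was measured on 19 Affymetrix arrays of 10 colon cancer lines. The authors deposited log2 values, for which the submitters' processing notes name RMA (background correction, normalization between arrays and probe summary). Its version is not given in the sources used here. No normalization was added. Of 54675 probe sets, 62 controls were left out. In the platform annotation 41091 probe sets named 1 gene, 1801 several, and 11721 were unnamed here. Of those naming 1 gene, 41037 matched a table of assembly GRCh38.p14 by Entrez number. Where several such probe sets named a gene, the brightest over the lines stood for it, which gave 19775 genes. Arrays were averaged per line. MSI and MSS lines, 5 each, were compared in R 4.3.3 with two-sided limma tests (version 3.58.1, lmFit then eBayes) at a Benjamini-Hochberg adjusted p under 0.05, and lines with a moderated F test over arrays. Both fits were run on simulated normal values. The simulation by status gave MSI and MSS lines the same spread for a gene, so it does not speak for genes with unequal spread, such as HOXD8. Arrays have no read depth.

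The HOX genes and the lists of other genes were chosen with earlier results of these data known. Members were given in full where they were among the 3 with the smallest p in a direction, the 3 with the largest range in a cluster, or paralog group 13. Of other lists the 2 genes with the smallest p were named, and non-coding or neighbouring genes with r of at least 0.9 and a range of at least 3 log2. Correlations, ranges and counts above 7 log2 had no test. Alternatives tried were centring on array medians, quantile normalization applied again, other probe sets, leaving out each line, single cultures, trend and robust eBayes, a filter at 6 log2, other levels and ranges, and fits on all arrays.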

Additional observations from a re-analysis of the deposited data

Results flagged for a closer look

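In 10 of 56 sets of 5 lines (28 HOX genes in each status), the highest or lowest line lay so far from the nearest other line that Dixon's ratio, that gap over the range of the 5 lines, exceeded 0.71. For normally distributed values chance alone gives about 1 in 20 such sets, and the genes of a cluster are not independent. The share over all genes was not computed, so no excess of HOX genes is read from this count. The causes were not tested. In the MSI lines, LIM2405 was high for HOXD1 at 9.70 log2, with the other 4 lines at 5.68 to 6.68 log2, and for HOXD13 at 8.12 log2, with the others at 5.25 to 5.50 log2. RKO was high for HOXC5 at 7.69 log2, with the others at 6.20 to 6.40 log2. LS174T was high for HOXD12 at 4.23 log2, with the others at 3.97 to 4.0 log2, a range of only 0.26 log2.

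In the MSS lines CACO2 was low for HOXB3 at 5.72 log2, with the other 4 lines at 9.78 to 10.91 log2, for HOXB5 at 6.85 log2, with the others at 8.55 to 9.23 log2, and for HOXB6 at 4.68 log2, with the others at 8.35 to 9.64 log2. CACO2 was high for HOXC10 at 7.57 log2, with the others at 5.35 to 5.97 log2. T84, which has 1 array, was high for HOXD4 at 7.62 log2, with the others at 4.96 to 5.18 log2, and for HOXD1 at 5.91 log2, with the others at 5.52 to 5.6 log2.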

How the results depend on the processing

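Of 279 differences of named members under an alternative, 267 kept their direction and side of the threshold, 10 reversed and 2 passed the threshold, none of the 10 reversals passing it. Leaving out each line, the MSI minus MSS difference ran from -1.17 to 0.19 log2 for HOXB3, from -0.95 to 0.57 log2 for HOXB6, from -1.08 to 0.14 log2 for HOXC6 and from -0.41 to 0.21 log2 for HOXC13. The labels number the cultures E1 and E2, and on E1 arrays alone HOXB6 was at 0.012 log2. Both that passed were of HOXD8: the number of members called was 1 on 19 arrays with the culture number as a replicate block and the line as a random block (adjusted p = 0.0324), and 1 without the replicate block (adjusted p = 0.0252), against 0 on line means. In these fits 304 and 350 of all genes passed, against 9. They use 1 common correlation between arrays of a line for all genes. For HOXD8 the SD between duplicates was 0.24 log2, against 1.67 log2 between MSI lines. Its duplicates therefore add little, and these fits can overstate the evidence for this gene. Without LS174T 54 genes passed, and other settings gave 2 to 23. The data do not show that the culture numbers pair the lines. Over 36 pairs of lines the E2 minus E1 differences correlated at r of -0.15 to 0.23, with 11 over 0.1. The block left the between-line count at 23. At 8 log2 in place of 7 log2, 13 members exceeded the level in at least 1 line, against 21. On E2 arrays alone the median r of neighbours was 0.35, against 0.45, and between clusters it was 0.10 on E2 and -0.005 on E1 arrays, against 0.07. Dim values near the array background limit HOXD10, HOXD11, HOXD12 and HOXC12.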

Other observations

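The genes of this section were picked after their values were seen, and no test is claimed for them. HOTAIR, a long non-coding RNA of the HOXC cluster, reached 8.85 log2 in HT29 and 6.88 log2 in T84, both MSS lines. It lay between 3.43 and 4.97 log2 in the MSI lines and between 3.40 and 5.50 log2 in the other 3 MSS lines. T84 was also the highest line for HOXC4, HOXC6 and HOXC11, while HT29 was the highest for none of the 9 HOXC genes. HOXA11-AS, from a cluster whose coding genes were mostly not analysed here, was highest in HT29 at 7.51 log2, in LS174T at 7.40 log2 and in SKCO1 at 7.01 log2, with a range of 2.85 log2.

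MEIS2, a HOX cofactor, was at 4.56 log2 in LS174T and at 4.77 log2 in T84, while the other 8 lines lay between 7.58 and 10.45 log2. LS174T was also the line with the fewest HOX genes above 7 log2, but T84 had 11. SKAP1, a signalling gene beside HOXB, ranged over 3.44 log2, with SW48 highest at 8.22 log2 and CACO2 lowest at 4.78 log2.

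A probe set annotated to HOXD3 and HOXD4 together with another locus read 5.38 log2 in RKO, 6.15 in SW48, 3.71 in HCT116, 5.00 in LIM2405 and 4.01 in LS174T, against 3.70 in HT29, 5.17 in T84, 3.65 in CACO2, 3.44 in SKCO1 and 3.57 in HCC2998. It was high in the same 4 lines as HOXD4. Another probe set of the same annotation was also highest in these 4 lines, at 3.82 to 4.26 log2. A further one was not, with LIM2405 at 4.42 log2, below LS174T at 4.54 log2. Signals of the genes on such a probe set cannot be told apart.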
